A study of Mus musculus with 28 samples.

Results

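The 9 genes described here build the adhesion sites of the Sertoli cell, the somatic cell that carries germ cells through the wall of the seminiferous tubule. They were chosen by name, with earlier results of these data known. They are Espn, Eps8, Vcl, Tln1, Itga6, Itgb1, Cdh2, Ctnnb1 and Gja1, out of 43280 gene rows. Each was found under its symbol in every library, and each passed the filter on low counts in every fit. The lowest count of any of them in a library was 53, for Itga6.

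The ectoplasmic specialization is a junction found only in the testis, in which the Sertoli cell lays bundles of parallel actin filaments under its membrane. At the apical face it holds the heads of elongating spermatids, and at the base it forms part of the barrier between neighbouring Sertoli cells. Integrins and cadherins span the membrane, talin, vinculin and catenins link them to actin, and espin and Eps8 act on the actin bundles themselves. The apical junction is taken down when spermatids are released, at the end of stages VII-VIII of the cycle of the seminiferous epithelium.

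Messenger RNA was sequenced in 28 mouse libraries. All animals had received WIN 18,446, an inhibitor of retinoic acid synthesis, for 7 days, and then an injection of retinoic acid, a treatment that brings the tubules of a testis to nearly the same stage. Tissue was taken 42 to 50 days after the injection, and the labels give no age. Of the libraries, 10 came from red fluorescent cells sorted out of testes with germ cells. These animals were RFP heterozygotes carrying Amh-Cre, so that the reporter is switched on by the promoter of a Sertoli gene. They form 5 groups of 2, named by the stages most enriched in them. The cycle runs from group B, stages I-III, to group C, stages IV-VI, then to D with stages VII-VIII, to E with stages IX-X, and closes with A, stages XI-XII. A group is thus a mixture of neighbouring stages and not a single one. The strain is given as C57BL/6 x 129s4/SvJae for 9 of the sorted libraries and with an Amh-Cre background for replicate 1 of group A. The other 18 libraries came from NANOS2 KO mice on a CD1 background, which lose their germ cells, 2 for each day from 42 to 50. These are labelled Sertoli, but the protocol names whole testis, and they are treated as that here. The labels do not say that replicates were separate animals, so each p-value measures only the spread between these libraries.

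Depth was modest. A sorted library held 1901743 to 5279746 counts and a knockout library 1336742 to 4370138. Levels are given as CPM, a gene's counts scaled to the same library total, and 3 counts correspond to at most 1.58 CPM in a sorted and 2.24 CPM in a knockout library. All 10 Sertoli markers were present in both sets, at 0.684% ± 0.149 of the counts in sorted libraries (SD, n = 10) and 1.29% ± 0.0547 in the knockout (SD, n = 18). The sorted libraries were not free of germ cell RNA. Markers of elongating spermatids took 0.189 to 1.34% of their counts, against 0 to 0.000297% in the knockout. Spermatocyte markers averaged 0.145% in sorted libraries and 0.000109% in the knockout, and round spermatid markers 0.0233% and 0.000641%. Spermatogonial markers were not lower in the knockout, at 0.0145% ± 0.00353 (SD, n = 18) against 0.0134% ± 0.00397 (SD, n = 10). Of these 8 markers only Sohlh1 had no count in any knockout library, and the source of the others was not tested. Mitochondrially encoded genes took 4.61 to 12.5% in sorted libraries, with both extremes in group D, and 0.715 to 3.24% in the knockout.

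Averaged over the sorted libraries, Espn stood far above the other 8 genes per length of exon. Its mean was 150.1 CPM per kb ± 62.5 (SD, n = 10), followed by Ctnnb1 with 51.9 ± 7.4 and Itgb1 with 24.7 ± 7.3. Tln1 (19.7 ± 3.7) and Vcl (19.3 ± 4.9) came next, then Gja1 (13.5 ± 3.5) and Cdh2 (8.8 ± 2.8). Eps8 (4.5 ± 1.7) and Itga6 (4.5 ± 1.9) were the lowest. The gaps between Itgb1, Tln1 and Vcl, and that between Eps8 and Itga6, are within the larger SD of the 2 neighbours, and the other gaps in this order exceed it. Group D did not share the wide lead of Espn. There Espn averaged 425 CPM ± 58.1 over 8.27 kb of exon and Ctnnb1 245 ± 51.9 over 5.19 kb (SD, n = 2 each), which is close per kb. In replicate 1 of D Ctnnb1 was the higher of these 2 genes per kb. The lengths are those of all annotated exons of a gene, so a gene that uses short isoforms is understated.

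Espn encodes espin, the protein that cross-links the actin filaments of the ectoplasmic specialization into tight bundles. It lies on the minus strand at chr4:152120331-152152371 (GRCm38), with no exon shared with another gene. In deposited CPM the libraries of group B held 1638 and 1993, those of A 1639 and 1582, those of C 1340 and 1195, those of E 1172 and 1002, and those of D 384 and 466. Both libraries of stages VII-VIII lay below the other 8, of which the lowest held 1002 CPM. By group mean the order was B, A, C, E and D. The neighbours B and A overlapped, while C and E did not, with 1195 CPM as the lowest value in C and 1172 CPM as the highest in E.

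Espn fell in group D. Against the mean of the other 4 groups its log2 change was -1.77 (SE 0.22, edgeR quasi-likelihood F test, adjusted p = 0.000671), a 3.42-fold lower level. The call held with each library left out in turn, the largest adjusted p being 0.0227 without replicate 1 of D. The step from stages IV-VI to VII-VIII was -1.59 on the log2 scale (SE 0.25, adjusted p = 0.017), a direction and call shared by 0.614% of the 14331 genes tested. The step on to stages IX-X was a rise of 1.37 (SE 0.25, adjusted p = 0.0116), in a comparison where 1.99% of genes were called higher. Fewer Sertoli cells with the transcript and less transcript per cell cannot be told apart in bulk RNA. Both steps lost their call when a library of group D was left out, with adjusted p of 0.276 and 0.147 for the first step and 0.116 and 0.0534 for the second. The first was also not called without replicate 1 of C (0.0725), nor the second without either library of E (0.125 and 0.0514). With limma without a filter neither step was called (0.0852 and 0.0583), nor with the germ cell share as a covariate (0.387 and 0.419).

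Markers of elongating spermatids, like Espn, were lowest in D and highest in B and A. These 7 markers of elongating spermatids, all of them detected in each group, took 1.22% of the counts in B, 1.21% in A, 0.935% in E, 0.806% in C and 0.228% in D, and they ranged from 0.189 to 0.268% in D and from 0.642 to 1.34% in the other groups. Their order differs from that of Espn in E and C. Markers of earlier germ cells were not low in D: spermatocyte markers took 0.146% there and 0.116 to 0.203% as means of the other groups, round spermatid markers 0.0266% and 0.0196 to 0.0285%, and spermatogonial markers 0.0164%, the highest of the 5 means. Myoid, macrophage and blood markers were also at their lowest mean in D, and Sertoli markers at their highest, 0.847%. By library, Sertoli markers took 0.85 and 0.844% in D, and replicate 2 of C was above both, at 0.906%. Replicate 1 of C was the lowest sorted library, at 0.488%. Leydig and endothelial markers went the other way from the myoid ones, with their highest means in D, 0.00367% and 0.0025%. For endothelial markers replicate 2 of C, at 0.00277%, was above both libraries of D. With the summed share of all germ cell markers, most of it from elongating spermatids, as a covariate the change of Espn in D was -1.96 (adjusted p = 0.311), and the covariate moves with the groups, so the 2 cannot be told apart within the sorted libraries. In the knockout, where the markers of elongating spermatids averaged 5.53e-05% and Akap4 and Smcp had no count in any library, Espn stood at 827 to 1134 CPM. Those libraries are whole testis of another strain, and the source of Espn RNA in the sorted libraries was not tested.

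**Figure D1:**
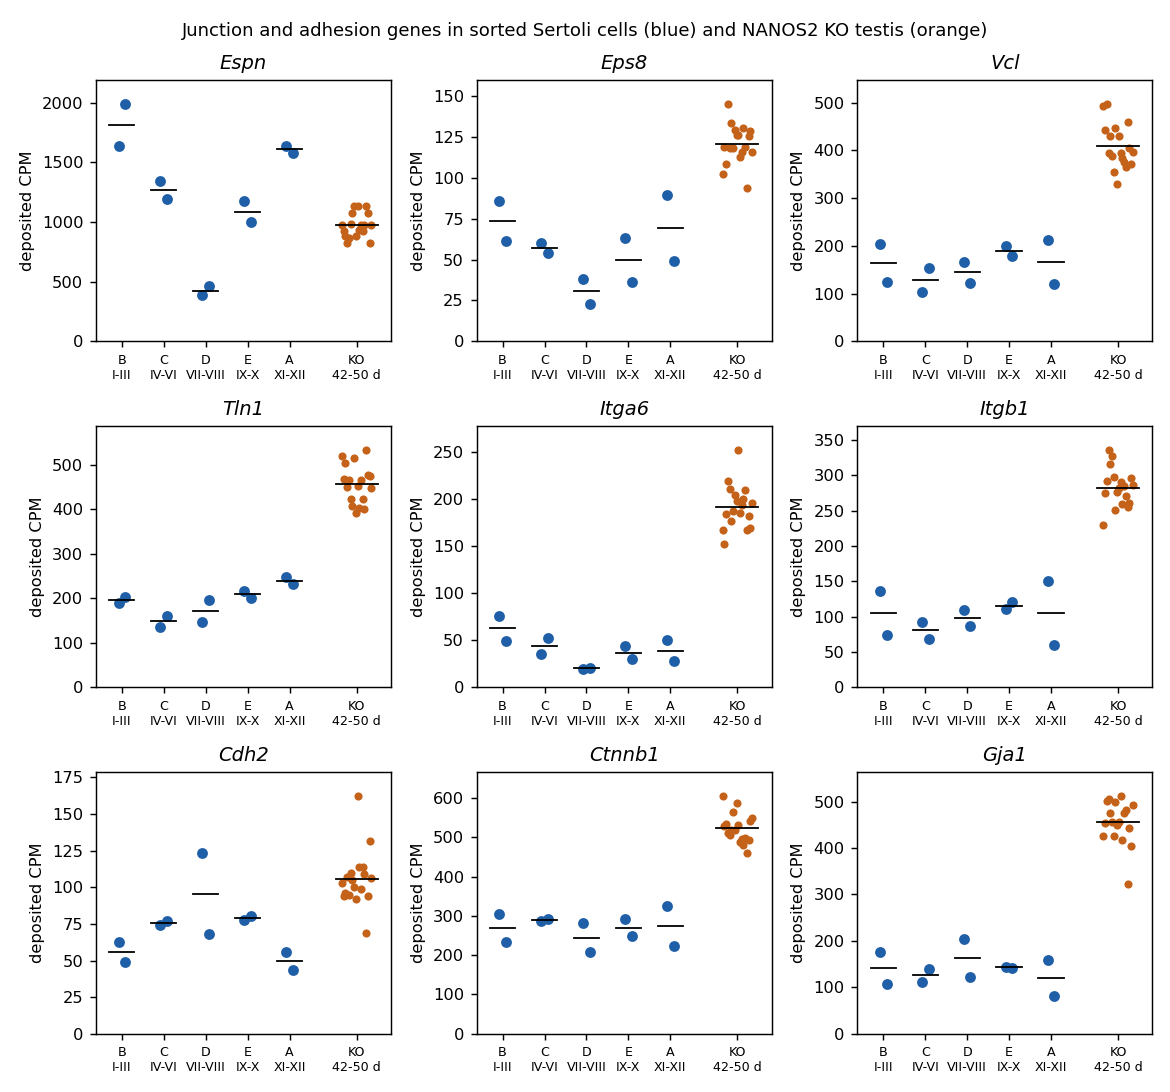
Deposited CPM of each gene (y axis, from 0, a scale for each gene) in each library, by stage group in the order of the cycle and in the NANOS2 KO testis (x axis). Points are libraries and bars are group means. Espn drops to 384 and 466 CPM in group D. On this scale, without TMM, 7 of the 9 genes lie higher in all 18 knockout libraries than in any sorted one.

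The promoter of Espn is shown because this gene moved most among the 9 between the stage groups. RefSeq (GRCm38.p6) gives it 3 start sites, and the counts do not say which one was used. The 250 bases before the most upstream of them, chr4:152152390-152152639 on the minus strand, are printed with GGGCGG or its reverse complement CCGCCC in capitals.

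Espn: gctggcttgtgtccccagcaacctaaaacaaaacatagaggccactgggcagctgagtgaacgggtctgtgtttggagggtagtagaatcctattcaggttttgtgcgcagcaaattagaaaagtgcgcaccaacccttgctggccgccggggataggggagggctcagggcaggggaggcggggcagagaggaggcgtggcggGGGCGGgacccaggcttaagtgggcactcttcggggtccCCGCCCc

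The 2 matches begin 46 and 7 bases before the start. Around the next start site downstream there was no match, and before the last there was 1, which begins 16 bases ahead of it. GGGCGG, the core of a site for Sp1-like factors, is held on either strand by 35.7% of the 32851 RefSeq windows of 250 bases before and 50 after a start. AGAACA, the hexamer repeated in the androgen response element, is held by 19% of all windows and was not found in the 3 windows of Espn. Of the 9 genes, 6 matched a window. Cdh2, Eps8 and Itga6 did not.

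Eps8, which caps and bundles actin filaments at the same junction, did not pass the test in any stage comparison. The gene is on the minus strand at chr6:137477245-137654876. Its 2 libraries read 86.2 and 61.5 CPM in B, 89.6 and 48.9 in A, 60.2 and 54.2 in C, 63.5 and 36.2 in E, and 38.3 and 22.7 in D. Group D again had the lowest mean, but its higher library lay above the lower one of E. The log2 change in D was -1.06 (SE 0.34, 95% interval -1.79 to -0.33, adjusted p = 0.0726). The call depends on the method and on single libraries. DESeq2 gave an adjusted p of 0.0207, the fit without a filter 0.0108, the replicate block 0.0117 and the fit without replicate 2 of A 0.0266. The change was -0.70 without replicate 2 of D (adjusted p = 0.514), -1.49 without replicate 1 of D (0.139) and -3.59 with the germ cell share as a covariate (0.175).

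Itga6, the alpha 6 integrin subunit, passed the test in group D as well. It is on the plus strand at chr2:71745616-71858416. In this junction it pairs with the beta 1 subunit and binds laminin on the spermatid. Its libraries read 19.7 and 20.6 CPM in D, below the other 8, where it ranged from 28 to 76.2 CPM. The change against the other groups was -1.18 (SE 0.34, adjusted p = 0.0453), a 2.27-fold lower level. The size stayed between -1.07 and -1.27 in every fit with a library left out, but the call was lost without replicate 1 of B (adjusted p = 0.0712), replicate 2 of C (0.0534), either library of D (0.25 and 0.259) or replicate 1 of E (0.0941). It was also lost with limma without a filter (-1.13, adjusted p = 0.0846) and with the germ cell share as a covariate. The F test over all 5 groups did not call it (adjusted p = 0.12).

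Its partner Itgb1 was not called in D. It ranged from 59.4 to 150 CPM over the sorted libraries, with 109 and 86.2 CPM in D, and its change in D was -0.07 (95% interval -0.76 to 0.62, adjusted p = 0.932). With the germ cell share as a covariate the fitted change of Itgb1 in D was -1.97 (adjusted p = 0.427) and that of Itga6 -2.07 (adjusted p = 0.433), both uncalled. Whether the changes of the 2 subunits differ was not tested. Group A alone held both the highest and the lowest value of Itgb1, 150 and 59.4 CPM.

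Vcl and Tln1 encode vinculin and talin, which tie integrins to actin. Vcl read 166 and 123 CPM in D and between 102 and 213 CPM in the other groups, a change of -0.19 (95% interval -0.80 to 0.42). Tln1 was at 147 and 197 CPM in D, with its highest pair in A (248 and 232) and its lowest in C (136 and 161), and its change in D was -0.22 (95% interval -0.66 to 0.22). Neither gene passed the test in any of the 5 groups. Vcl shares 2090 exonic bases with Ap3m1 and Tln1 shares 360 with Creb3, each on the opposite strand, and the use of strand in the counting is not given in the sources used here, so reads of these partners may be among theirs.

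Cdh2, the N-cadherin of Sertoli and germ cells, lay the other way in D, without passing the test. It was at 56.0 and 43.5 CPM in A, 62.6 and 49.0 in B, 74.0 and 76.8 in C, 123 and 68.0 in D, and 77.7 and 80.3 in E. The high value in D came from 1 library, the other being below both libraries of C and of E. The change in D was 0.55 (SE 0.24, 95% interval 0.03 to 1.07, adjusted p = 0.194). That library, replicate 1 of D, also had the highest mitochondrial share, 12.5%, against 4.61% in replicate 2, and the part of this in the value was not tested.

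Ctnnb1, the beta-catenin that binds the cadherin tail, had the narrowest range of the 9 in sorted cells. It ran from 208 to 325 CPM, a ratio of 1.56 between the extremes, where the median over genes with a mean log2 CPM of 4 or more was 2.27. Its group means lay between 245 and 289 CPM. Part of its exons, 759 bases, is shared with Ulk4 on the opposite strand. Gja1, connexin 43, the main gap junction protein of the seminiferous epithelium, ran from 81.5 to 203 CPM, with its highest library in D and its lowest in A. The changes in D were -0.21 for Ctnnb1 (95% interval -0.70 to 0.28) and 0.26 for Gja1 (95% interval -0.36 to 0.88).

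In all, 1 of the 9 genes, Espn, was called in the F test over the 5 stage groups (adjusted p = 0.00235), in which 8.07% of the 14331 genes tested were called. In group D against the others, 2 of 9 were called lower, where 4.28% of all genes were, and the same 2 had both D libraries below the other 8, as did 7.62% of all genes. The median change of the 9 genes in D was -0.21, and that of all genes 0.04. None of the 9 was called in A, B, C or E against the others (edgeR), where 1.67%, 0.0419%, 2.64% and 0.523% of genes were called. Espn came nearest, with a log2 change of 0.72 in A (adjusted p = 0.077) and 0.90 in B (adjusted p = 0.12, both by edgeR's quasi-likelihood test), and DESeq2 called it in both. The other unadjusted p under 0.05 were those of Tln1 in A (0.0318) and C (0.045) and of Itga6 in B (0.00793).

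**Figure D2:**
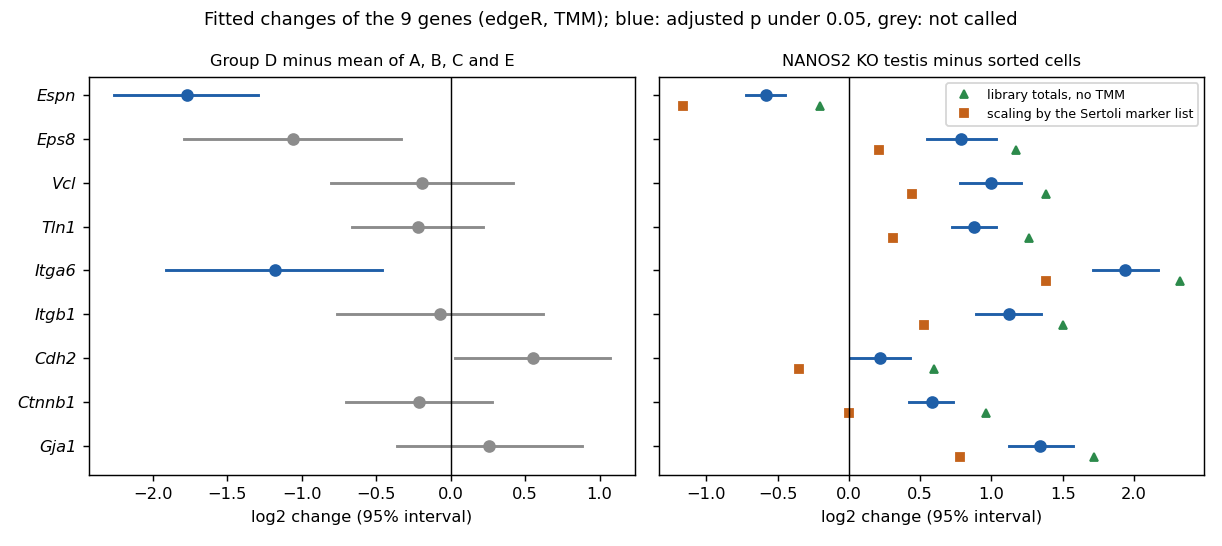
Fitted log2 changes (x axis) of the 9 genes with 95% intervals. Left, group D minus the mean of the other stage groups, where Espn (-1.77) and Itga6 (-1.18) were called. Right, NANOS2 KO testis minus sorted cells, with squares and triangles for 2 other scalings. With the Sertoli marker list Cdh2 changes sign (-0.35) and Ctnnb1 is at 0.00, and with library totals they are at 0.60 and 0.96.

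Several genes differed between the 2 replicates of a group by more than between groups. In group A, replicate 1 exceeded replicate 2 for 9 of 9 genes, by a median of 0.79 on the log2 scale. Genes in the top quartile of exon length differed there by a median of 0.30 and those in the bottom quartile by -0.06. The median gap of the 9 genes was 0.49 in B, with 7 of 9 higher in replicate 1, 0.45 in D with 6, and 0.28 in E with 8. In C it was -0.13, with 3 of 9 higher in replicate 1. Genes in the top quartile of exon length differed by a median of 0.09 in B, 0.04 in C, 0.11 in D and 0.11 in E. Those in the bottom quartile differed by 0.01, -0.13, -0.18 and -0.07 in that order. The share of all genes higher in replicate 1 was not counted, so these counts do not set the 9 genes apart. The part of transcript length, RNA quality and strain in these gaps was not tested.

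Within the sorted cells Espn was closer to Itga6 and Eps8 than to the other members. The root mean square difference of centred log2 CPM profiles over the 10 libraries was 0.46 to Itga6 and 0.47 to Eps8, and largest for Cdh2. Among 7862 expressed genes the median difference to Espn was 0.84, and the 3 nearest were Etv5, Plekhf1 and Foxq1, at 0.14 each. Etv5, an ETS transcription factor needed in Sertoli cells for the upkeep of spermatogonial stem cells, had 257 CPM ± 6.87 in B, 244 ± 17.5 in A, 174 ± 28.7 in C, 158 ± 41.8 in E and 65.6 ± 3.75 in D (SD, n = 2 each). Plekhf1 went from 45.0 CPM ± 7.08 in B to 12.4 ± 3.88 in D. Foxq1, a forkhead transcription factor, went from 65.1 CPM ± 1.31 in B to 12.8 ± 0.74 in D. These genes were picked for their likeness, which is a description over 10 libraries whose elongating spermatid markers are also lowest in D.

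**Figure D3:**
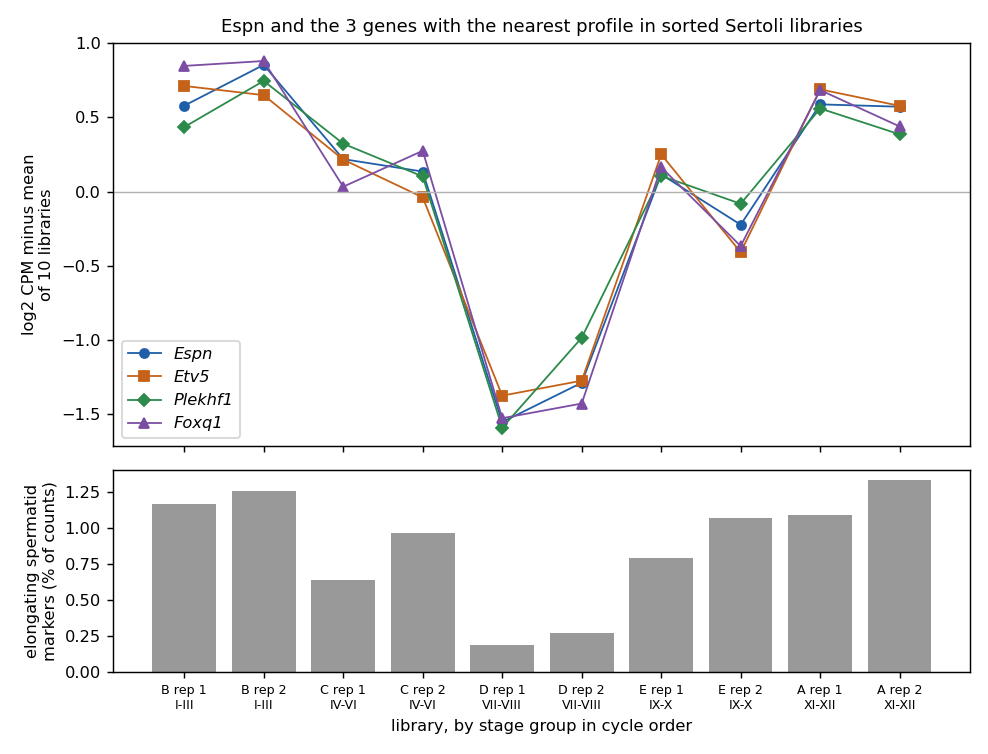
Top, centred log2 CPM (y axis) of Espn and the 3 genes with the nearest profiles in each of the 10 sorted libraries (x axis, in order of the cycle). Bottom, the share of counts from elongating spermatid markers in the same libraries, which is also lowest in D, at 0.189 and 0.268%.

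The other genes of these structures were read in 5 lists. Over all 14331 genes tested, 614 (4.28%) were called lower in D and about as many higher. No list was tested against these shares. Of 16 actin genes of the ectoplasmic specialization, 2 were called in D, both lower: Espn and Pls3, the actin bundler plastin 3, at 17.4 CPM ± 1.70 in D and at means of 55.9 to 104 in the other groups (log2 change -2.05, SE 0.36, adjusted p = 0.0035). Of 18 integrin and focal adhesion genes, 2 were lower, Itga6 and Fermt2, the kindlin 2 that activates integrins (13.5 CPM ± 0.134 in D, means of 30.8 to 56.4 in the other groups, log2 change -1.69, adjusted p = 0.0186). Of 13 cadherin, catenin and nectin genes, 1 was lower and 1 higher. Ctnna1, the alpha-catenin that joins beta-catenin to actin, was at 170 CPM ± 11.6 in D, with 220 ± 32.8 in E and 374 ± 62.8 in C (-0.90, adjusted p = 0.0208). Cdh1, E-cadherin, was at 27.1 CPM ± 5.85 in D, with 11.8 ± 7.26 in E and 1.43 ± 0.209 in B (2.91, SE 0.47, adjusted p = 0.00205). None of 7 gap junction and desmosome genes tested was called. Of 11 genes of the tubulobulbar complex, the structure that resorbs the apical junction, and of laminin chains, 1 was higher, Lama3 (log2 change 1.20, adjusted p = 0.0208). Its mean of 22.4 CPM ± 5.12 in D was close to that in C, 21.3 ± 3, with 13.3 ± 2.47 in B and 4.32 ± 1.72 in A, so the call does not set D apart from C. The medians of the lists in D were -0.21, -0.37, 0.10, -0.01 and 0.21 in that order, against 0.04 for all genes. Pls3 also rose again from D to E, by 1.71 (SE 0.40, adjusted p = 0.0339), in a step where 1.99% of all genes were called higher and fewer lower. Pvrl3, nectin 3, was called higher in the same step (56.4 CPM ± 0.806 in D, 124 ± 18.2 in E), and Lama3 lower (6.51 CPM ± 0.101 in E). The F test over the 5 groups called 2, 0, 5, 0 and 1 genes of the lists in that order, beside 8.07% of all genes.

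The knockout testes ask whether these genes cycle in mice that lose their germ cells. None of the 9 was called by the tests used. The cycle test called 0 of 13065 genes, so it cannot set these genes apart from others. Whether the knockout testes ran through the cycle in step was not tested. Espn ran from 827 to 1134 CPM over the 18 libraries, with its lowest day mean on day 43 (854 CPM ± 37.4) and its highest on day 49 (1105 ± 38.6, SD, n = 2 each), a ratio of 1.29. The 2 libraries of day 46 alone, at 886 and 1134 CPM, spanned most of that range. Across the sorted groups the extreme means had been 425 CPM ± 58.1 and 1816 ± 251. In the F test over days the adjusted p of Espn was 0.578, and its cyclic term with a period of 8.6 days had an amplitude of 0.08 on the log2 scale (adjusted p = 0.775).

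The other 8 genes were not called either. The highest day mean exceeded the lowest by 1.16 times for Eps8, 1.19 for Ctnnb1, 1.23 for Tln1, 1.26 for Vcl, 1.27 for Itgb1, 1.31 for Gja1, 1.41 for Itga6 and 1.56 for Cdh2. The coefficient of variation over the 18 libraries was 7.12% for Ctnnb1 and 18% for Cdh2, the extremes of the 9, and the median over 8869 genes was 14.7%. None of the 9 was called in the F test over days (edgeR, lowest unadjusted p 0.114), the straight line (lowest 0.102) or the cycle (lowest 0.0624, Itga6), and DESeq2 called none either. Of 13065 genes, 0.582% were called in the first and 0.857% in the second. The cycle gave 0 calls over all genes. There the unadjusted p was under 0.05 for 1262 genes, and DESeq2 made 60 calls. Replicate 1 of day 49 held the lowest value of Gja1, 323 CPM, and of Cdh2, 68.8 CPM, and it also had the lowest mitochondrial share, 0.715%. Replicate 2 of day 46, the library with the fewest counts, held the highest values of Cdh2, 162 CPM, and of Itga6, 252 CPM. Of the other genes in the 5 lists 1 was called over the days, Lama2, a laminin chain of the basement membrane, in the F test (adjusted p = 0.0137) and the line (-0.10 per day, SE 0.02, adjusted p = 0.0288).

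**Figure D4:**
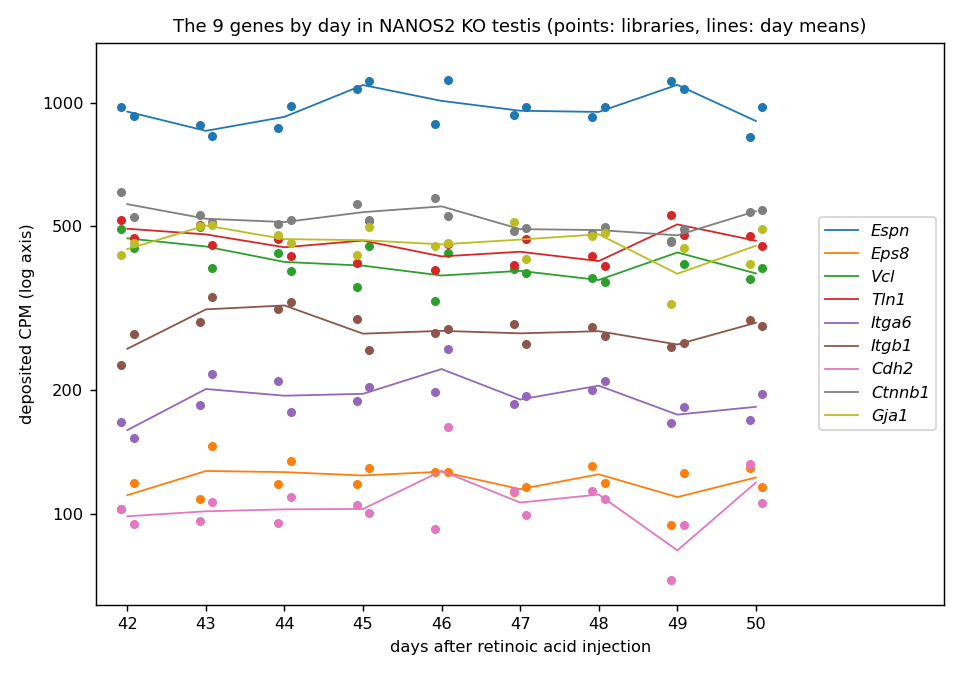
Deposited CPM (y axis, log scale) of the 9 genes in NANOS2 KO testis by days after the retinoic acid injection (x axis). Points are libraries and lines join day means. No gene passed a test over the days, and Espn stays between 827 and 1134 CPM.

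Against sorted cells, the level in NANOS2 KO testis was higher for most of these genes and lower for Espn. Tissue, strain, sorting and germ cells differ together between the sets, so their parts cannot be told apart. In deposited CPM, 7 of the 9 genes were higher in all 18 knockout libraries than in any sorted library, as were 23.6% of the 15777 genes tested. Deposited CPM is scaled by library totals, which places the knockout higher than TMM does. The TMM factors were 0.796 to 0.887 in sorted and 1.07 to 1.14 in knockout libraries. The overlap of ranges was not counted under TMM. Itga6 rose from 40.6 ± 17.4 (SD, n = 10) to 192 ± 23.1 (SD, n = 18), Gja1 from 139 ± 35.5 to 455 ± 45.9, and Itgb1 from 101 ± 29.7 to 282 ± 27.0. Vcl went from 158 ± 39.8 to 409 ± 46.2, Tln1 from 193 ± 36.1 to 457 ± 43.2, Eps8 from 56.1 ± 21.1 to 121 ± 12.0, and Ctnnb1 from 269 ± 38.6 to 523 ± 37.2. For these 7 genes the CPM means differed by 1.94 to 4.72 times. Their fitted folds under TMM were smaller, from 1.49 for Ctnnb1 to 3.84 for Itga6.

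Cdh2 and Espn overlapped between the sets. Cdh2 averaged 71.1 CPM ± 22.2 in sorted cells and 106 ± 19.0 in the knockout, and 5 of the 10 sorted libraries lay inside the knockout range. Espn averaged 1241 CPM ± 517 in sorted cells and 973 ± 101 in the knockout. The knockout range of Espn, 827 to 1134 CPM, lies between the groups: all 4 libraries of A and B and the 2 of C were above it, as was 1 of E, both of D were below it, and the other of E, at 1002 CPM, was inside it. Per length of exon, Espn was not far ahead in the knockout, with 117.7 CPM per kb ± 12.2 against 100.7 ± 7.2 for Ctnnb1. The 2 genes were also close per kb in group D of the sorted cells, so this is not particular to the knockout.

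In the fit of all 28 libraries each of the 9 genes was called, as were 85.1% of all genes, so the calls by themselves do not set these genes apart. The changes were 1.94 (SE 0.11) for Itga6, 1.34 (SE 0.11) for Gja1, 1.12 (SE 0.11) for Itgb1, 1.00 (SE 0.10) for Vcl, 0.88 (SE 0.07) for Tln1, 0.79 (SE 0.11) for Eps8, 0.58 (SE 0.07) for Ctnnb1, 0.22 (SE 0.10) for Cdh2 and -0.58 (SE 0.07) for Espn. The adjusted p were between 1.41e-14 and 6.09e-07 except for Cdh2, at 0.0442. In this fit 38% of genes were called higher and 47% lower, and the median change was 0.88 for the 9 genes and -0.17 for all.

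These sizes rest on the scaling. Scaling by library totals alone, an alternative added after the data were seen, moved the median of all genes by 0.38, and scaling by the Sertoli marker list moved it by -0.57. The share of called genes that were higher was 44.7% with TMM, 56.4% with totals and 29.2% with the Sertoli list. Espn was lower under each of the 3 (-0.58, -0.20 and -1.16), and Itga6, Gja1, Itgb1, Vcl and Tln1 were higher and called under each. Eps8 (0.21, adjusted p = 0.166) and Ctnnb1 (0.00, adjusted p = 0.997) lost their call when scaled by the Sertoli list. Cdh2 changed sign, to -0.35 (adjusted p = 0.0107), and its call with TMM was also lost in 18 of 28 fits with a library left out.

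Leydig, myoid and endothelial markers were higher in all 18 whole testis libraries than in any sorted one. Leydig markers took 0.328% ± 0.113 of the counts (SD, n = 18) against 0.00262% ± 0.000829 in sorted cells (SD, n = 10), where Insl3 and Lhcgr had no count in any library. Myoid markers took 0.0662% ± 0.00519 against 0.0212% ± 0.00829 and endothelial markers 0.0098% ± 0.00213 against 0.00122% ± 0.001. Macrophage markers overlapped, at 0.0181% ± 0.00241 against 0.0164% ± 0.00665. Blood markers were lower on average in the knockout, at 0.00709% ± 0.00162 against 0.0409% ± 0.0304. Integrins, vinculin, talin, cadherins and connexin 43 are also made by such cells, and the part of these cells in the changes above was not tested.

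The lists are counted under TMM, beside 38% higher and 47% lower over all genes, and no difference between lists was tested. Of 16 actin genes 7 were higher and 7 lower in the knockout, with Ezr, the membrane linker ezrin, at 161 CPM ± 28.3 against 17.9 ± 3.41, and Cfl1, the filament-severing cofilin, at 518 ± 42.8 against 844 ± 75.6. Of 18 integrin and focal adhesion genes 12 were higher and 4 lower. Itga9, another integrin alpha subunit, was at 64.7 CPM ± 14.7 against 4.18 ± 1.92, and Tln2, the other talin, at 53.8 ± 12.5 against 188 ± 53.2, the opposite direction to Tln1. Of 13 cadherin, catenin and nectin genes 9 were higher and 4 lower. Pvrl3, nectin 3, the nectin that spermatids contribute to this junction, was at 4.29 CPM ± 1.74 against 89.4 ± 31.0 (log2 change -4.77, SE 0.11, adjusted p = 5.5e-22). Pvrl2, nectin 2, its partner on the Sertoli side, was at 372 CPM ± 32.7 against 516 ± 145 (-0.81, adjusted p = 4.71e-10). Of 8 gap junction and desmosome genes tested 4 were higher and 2 lower, among them Tjp1 at 218 CPM ± 26.9 against 85.3 ± 34.4. Of 11 tubulobulbar and laminin genes 7 were higher and 3 lower, led by the laminin chains Lamb1 (272 CPM ± 50.0 against 6.12 ± 2.56) and Lama2 (258 ± 65.3 against 5.29 ± 1.99). The medians of the lists were 0.01, 0.94, 0.52, 0.42 and 1.58 in that order, beside -0.17 for all genes. With library totals, also counted after the data were seen, the 5 lists had 8, 14, 9, 5 and 8 genes higher and 6, 3, 3, 1 and 3 lower. With the Sertoli list they had 2, 10, 2, 3 and 7 higher and 10, 6, 6, 2 and 4 lower, and the medians of the actin, cadherin and gap junction lists were below 0 (-0.55, -0.06 and -0.11). Ezr, Itga9, Tjp1, Lamb1 and Lama2 were higher, and Cfl1, Tln2, Pvrl3 and Pvrl2 lower, and called under each of the 3 scalings.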

How the data were processed

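Messenger RNA of 10 sorted Sertoli cell libraries and 18 whole testis libraries of NANOS2 KO mice was read on an Ion Proton, per the labels' protocols. The build mm10 and the tools Bowtie, TopHat and Cufflinks are named, per the submitters' processing notes. How reads were counted, on which annotation and whether by strand, is not given in the sources used here. Raw counts for 43280 gene rows were deposited by the authors. The 2 deposited tables named FPKM hold CPM: dividing the counts by library totals returns every value to within 0.0005. The header of day 42 is shared by 2 count columns, told apart by matching each to the CPM column it yields. Among the row names 27 symbols had been turned into dates, none of them a gene named here. Positions and exon lengths come from GENCODE M21 on GRCm38, which holds 91.1% of the symbols, and promoters from RefSeq on GRCm38.p6.

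The counts that passed filterByExpr were scaled by TMM, and edgeR 4.0.16 (R 4.3.3) gave quasi-likelihood F tests. The sorted set had 14331 genes to test, the knockout 13065 and the joint set 15777. The scripts were tested on simulated data for group D against the others, the line over days and the knockout against sorted cells. The cycle and the F tests over groups or days were not simulated, and the simulated slopes were far steeper than any reported here. Library sizes stayed the totals over all genes after the filter, as in an earlier analysis of these data. The biological coefficient of variation was 0.268, 0.122 and 0.192. Adjusted p-values are Benjamini-Hochberg values over all genes of a fit, and a gene under 0.05 is called. Values by library are deposited CPM, without TMM. Total counts limit the precision, and 3 counts equal 0.568 to 2.24 CPM, for counting error only.

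All 9 genes are named whatever their p. From each list of related genes the rule allows at most 2 called genes in each direction, those with the smallest p, and the text gives a part of them. The nearest profiles are the smallest root mean square differences of centred log2 CPM (prior count 2) among genes with a mean of at least 4. The members, lists, markers and alternatives were chosen with earlier results of these data known. The alternatives tried were DESeq2 1.42.0, RLE scaling, edgeR without the filter, limma 3.58.1 with trend on log2(CPM + 1) or log2(CPM + 0.1), limma without the filter, the replicate number as a block, the germ cell share as a covariate, scaling by the Sertoli markers, scaling by library totals, and leaving out each library in turn. All libraries were used.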

Additional observations from a re-analysis of the deposited data

How the results depend on the processing

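Over the 9 genes and the 12 comparisons, 2262 of 2403 values under another setting kept their direction and their side of the threshold, 40 lost a call, 14 gained one and 87 changed sign. Of the sign changes 86 were of genes called in neither fit. The other was Cdh2 in the knockout against sorted cells, -0.35 when scaled by the Sertoli marker list. Scaling by library totals was added after the data were seen; the other settings were listed with earlier results of these data known. The counts of called genes moved with the method, over all genes: the main values were 240 for group A, 6 for group B, 379 for group C, 90 for D against C, 1239 for group D, 510 for E against D, 75 for group E, 13419 for the knockout against sorted cells, 76 for the F test over days, 0 for the cycle, 112 for the line over days and 1156 for the F test over stages. Without the filter the counts were 901 for group A, 307 for group B, 988 for group C, 617 for D against C, 1932 for group D, 1180 for E against D, 651 for group E, 968 for the F test over days, 359 for the cycle and 2764 for the F test over stages. With DESeq2 the counts were 527 for group A, 108 for group B, 649 for group C, 310 for D against C, 839 for E against D, 285 for group E, 215 for the F test over days, 60 for the cycle, 212 for the line over days and 2000 for the F test over stages. With the replicate number as a block the counts were 477 for group A, 24 for group B, 178 for D against C, 874 for E against D, 170 for group E and 65 for the line over days. With the germ cell share as a covariate the counts were 127 for group A, 0 for group B, 0 for D against C, 0 for group D, 0 for E against D, 9 for group E and 382 for the F test over stages. With limma on log2(CPM + 0.1) the counts were 1 for group B, 31 for the F test over days and 26 for the line over days. With limma on log2(CPM + 1) the counts were 0 for group B, 40 for the F test over days and 28 for the line over days. With limma on log2(CPM + 1) and no filter the counts were 24 for group A, 0 for group B, 69 for group C, 12 for D against C, 791 for group D, 202 for E against D, 2 for group E, 0 for the F test over days, 1 for the line over days and 490 for the F test over stages. With a library left out they ran from 85 to 304 for group A, from 0 to 81 for group B, from 161 to 598 for group C, from 0 to 392 for D against C, from 295 to 1788 for group D, from 38 to 842 for E against D, from 0 to 319 for group E, from 24 to 909 for the F test over days, from 0 to 9 for the cycle, from 4 to 213 for the line over days and from 414 to 1557 for the F test over stages.

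Of the 9 genes the number called became without the filter 1 for group A, 1 for group B and 3 for the F test over stages; with DESeq2 1 for group A, 1 for group B and 2 for the F test over stages; with the replicate number as a block 2 for the F test over stages; with the germ cell share as a covariate 0 for D against C, 0 for group D, 0 for E against D and 0 for the F test over stages; with limma on log2(CPM + 1) and no filter 0 for D against C, 1 for group D and 0 for E against D. With a library left out it ran from 0 to 1 for D against C, from 1 to 3 for group D, from 0 to 1 for E against D and from 1 to 2 for the F test over stages. The main fits had no replicate block. The deviations of same-numbered sorted libraries correlated with a median r of 0.30 over pairs of groups, from -0.18 to 0.58. Of 10 pairs 6 exceeded 0.1, so some groups shared part of their replicate difference. In the knockout the median r was -0.01. The rule used takes the numbers to mark paired libraries only if every pair of groups exceeds 0.1. Neither set met it, which does not show that the libraries were unpaired. Eps8 in D reached an adjusted p of 0.0117 with the block. With a library left out the smallest group has 1 library, which is assumed to vary like the others, and the filter passes more genes, 14800 to 15304 against 14331 in the sorted set and 16469 to 16583 against 15777 in the joint fit. The cause of the other shifts was not tested. 

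Signs changed for genes called in neither fit as follows, in log2 units. With the germ cell share as a covariate they were Gja1 0.29 in group A, Cdh2 0.03 and Tln1 -0.08 in group B, Cdh2 -0.51, Gja1 -0.75, Itgb1 -1.24 and Vcl -0.57 in D against C, Cdh2 -0.48, Gja1 -1.07 and Tln1 0.14 in group D, Cdh2 0.74, Gja1 1.13 and Tln1 -0.05 in E against D and Ctnnb1 0.23, Eps8 0.35 and Itga6 0.09 in group E. Ctnnb1 became 0.01 in group E with library totals, with limma on log2(CPM + 1) without a filter and with edgeR without a filter, and -0.03 in group B with the last 2. The slope per day of Eps8 became -0.00222 with library totals, -0.000354 with limma at either pseudocount, -0.00111 with limma and no filter and -0.000456 with edgeR and no filter. With a library left out the change spanned 0 for several genes. In D against C it ran from -0.18 to 0.73 for Cdh2, -0.09 to 0.71 for Gja1 and -0.13 to 0.52 for Vcl. In E against D it ran from -0.65 to 0.24 for Cdh2, -0.06 to 0.40 for Ctnnb1 and -0.51 to 0.26 for Gja1. In group A it ran from -0.20 to 0.32 for Ctnnb1, -0.73 to 0.19 for Gja1, -0.37 to 0.45 for Itga6, -0.66 to 0.64 for Itgb1 and -0.29 to 0.50 for Vcl. In group B it ran from -0.18 to 0.19 for Ctnnb1, -0.33 to 0.39 for Gja1, -0.40 to 0.48 for Itgb1 and -0.29 to 0.41 for Vcl. In group D it ran from -0.45 to 0.02 for Ctnnb1, -0.17 to 0.61 for Gja1, -0.26 to 0.13 for Itgb1 and -0.43 to 0.04 for Vcl. In group E it ran from -0.19 to 0.15 for Ctnnb1, -0.66 to 0.26 for Eps8, -0.23 to 0.10 for Espn, -0.05 to 0.18 for Gja1 and -0.44 to 0.22 for Itga6. In group C it ran from -0.02 to 0.22 for Eps8 and -0.11 to 0.53 for Itga6. In the line over days it ran from -0.00786 to 0.00765 for Eps8, -0.00599 to 0.0159 for Itga6, -0.0165 to 0.00093 for Itgb1 and -0.0131 to 0.00289 for Tln1.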
